A study of Mus musculus with 8 samples.

Results

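The accessory genes of the circadian clock examined here were 9 transcripts chosen by symbol: the repressors Bhlhe40, Bhlhe41 and Ciart, the kinases Csnk1d, Csnk1e and Gsk3b, and the ubiquitin enzymes Btrc, Fbxw11 and Usp2. Each symbol matched 1 Ensembl identifier of the 34070 in the count table, and all 9 passed the filter on low counts, as did 19646 genes in all. The study sequenced epidermal RNA of adult mice between 18 and 25 weeks of age, collected at zeitgeber time 4, which is 4 h after lights on. In the 4 Bmal1cKO libraries (K14-Cre;Bmal1flox/flox) Cre recombinase acted on floxed copies of Bmal1, and the 4 Bmal1WT libraries (K14-Cre;Bmal1wt/wt) carried the same Cre with wild-type Bmal1. The keratin 14 promoter drives Cre in keratinocytes, so immune cells, melanocytes and other cells of the suspension keep Bmal1. Fewer cells of a type and less RNA per cell cannot be told apart in such bulk samples.

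In the clock, BMAL1 and its partner CLOCK bind E-box sequences and switch on the period and cryptochrome genes, whose proteins return to the nucleus and inhibit them. The genes described here tune that loop. BHLHE40 and BHLHE41, also called DEC1 and DEC2, are helix-loop-helix proteins that bind E-boxes and repress, and CIART, also called CHRONO, binds BMAL1 and represses its activity. The casein kinases CK1 delta (Csnk1d) and CK1 epsilon (Csnk1e) phosphorylate PER proteins, which the F-box proteins beta-TrCP1 (Btrc) and beta-TrCP2 (Fbxw11) then recognise for ubiquitination. GSK3 beta (Gsk3b) phosphorylates several clock proteins and beta-catenin, and USP2 is a deubiquitinase whose transcript cycles in many tissues. Bhlhe40, Bhlhe41, Ciart and Usp2 are known as rhythmic targets of the clock in many tissues.

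The E-box was looked up as the letters CACGTG, which read the same on either strand, in the 250 bases before the RefSeq start sites. RefSeq windows (GRCm38.p6) were matched for 6 of the 9 genes, and the letters stood in 2 of them. The Ciart window held 3 E-boxes, with their first bases 116, 58 and 44 bases before the start, the last pair lying 14 bases apart from start to start. The Bhlhe41 window held 1, at 153 bases before the start. Of all 32851 windows of this length, 6.02% held at least 1 E-box and 20 windows (0.0609%) held 3 or more. The windows of Usp2, Gsk3b, Fbxw11 and Csnk1e held none of these letters, and in all 6 genes the related letters CACGTT (3.85% of all windows) and the ROR-type letters AGGTCA (14% of all windows), read on both strands, were not found. The Usp2 and Csnk1e windows lay inside the annotated genes, so their outermost starts were not searched. Of 16 core clock and output genes, 14 had windows and 3 held the E-box letters. Those of Npas2, Nr1d1, Nr1d2, Dbp and Per3 did not, so absence here says little about control by the clock. The Ciart and Bhlhe41 windows are printed because they carry the E-boxes, in the direction of transcription, minus strand, with the E-boxes in capitals.
Ciart chr3:95882229-95882478: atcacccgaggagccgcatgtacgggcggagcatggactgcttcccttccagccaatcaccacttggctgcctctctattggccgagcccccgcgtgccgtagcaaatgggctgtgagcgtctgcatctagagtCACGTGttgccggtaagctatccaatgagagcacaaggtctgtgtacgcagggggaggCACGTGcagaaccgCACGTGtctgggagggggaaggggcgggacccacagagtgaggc
Bhlhe41 chr6:145865421-145865670: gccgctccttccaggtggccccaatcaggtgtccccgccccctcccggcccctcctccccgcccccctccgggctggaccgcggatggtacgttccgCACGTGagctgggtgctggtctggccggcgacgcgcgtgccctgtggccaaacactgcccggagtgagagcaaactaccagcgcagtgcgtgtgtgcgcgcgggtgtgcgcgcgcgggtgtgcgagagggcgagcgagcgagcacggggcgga

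Before the members, the libraries were checked. Total counts were 35685261 to 38656738 in the Bmal1cKO libraries and 36353165 to 50396156 in the Bmal1WT libraries. Bmal1 itself (symbol Arntl) was at 30.7 to 37.6 CPM in Bmal1cKO and 42.0 to 49.1 CPM in Bmal1WT (CPM, the count relative to the library's total after TMM scaling), without overlap, with an edgeR adjusted p = 0.0611 and, with the replicate number as a block, 0.0358. The counts cover the whole gene and can include exons outside the floxed part. Keratinocyte keratins (Krt5, Krt14, Krt1 and Krt10) summed to 22050 to 27870 CPM in Bmal1cKO and 22790 to 32540 CPM in Bmal1WT. The markers of Langerhans cells, T cells, macrophages, melanocytes, fibroblasts, endothelial cells, skeletal muscle, adipocytes and hair follicle overlapped between the groups in every list. Replicates 1 and 3 of each group were female and replicates 2 and 4 male, as read from Xist and Y-linked genes. EdgeR's quasi-likelihood test called 34 of 19646 genes at an adjusted p under 0.05 (Benjamini-Hochberg over all genes tested), which is 0.173% of the genes tested.

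None of the 9 accessory clock genes differed between Bmal1cKO and Bmal1WT at that threshold. EdgeR called 0 of 9, DESeq2 and limma voom also called 0, and 1 of 9 had an unadjusted p under 0.05, where 8.3% of all genes tested did. In 0 of 9 were the groups free of overlap, against 5.15% of all genes. The 3 repressors had negative fold changes and wide intervals, while the kinases and the ubiquitin enzymes had log2 fold changes from -0.02 to 0.14. The median log2 fold change was 0.02 over the members and -0.009 over all genes tested, and the median of its size was 0.044 over the members and 0.088 over all genes. With the replicate block edgeR called 152 genes (0.774%) and again 0 members.

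**Figure D1:**
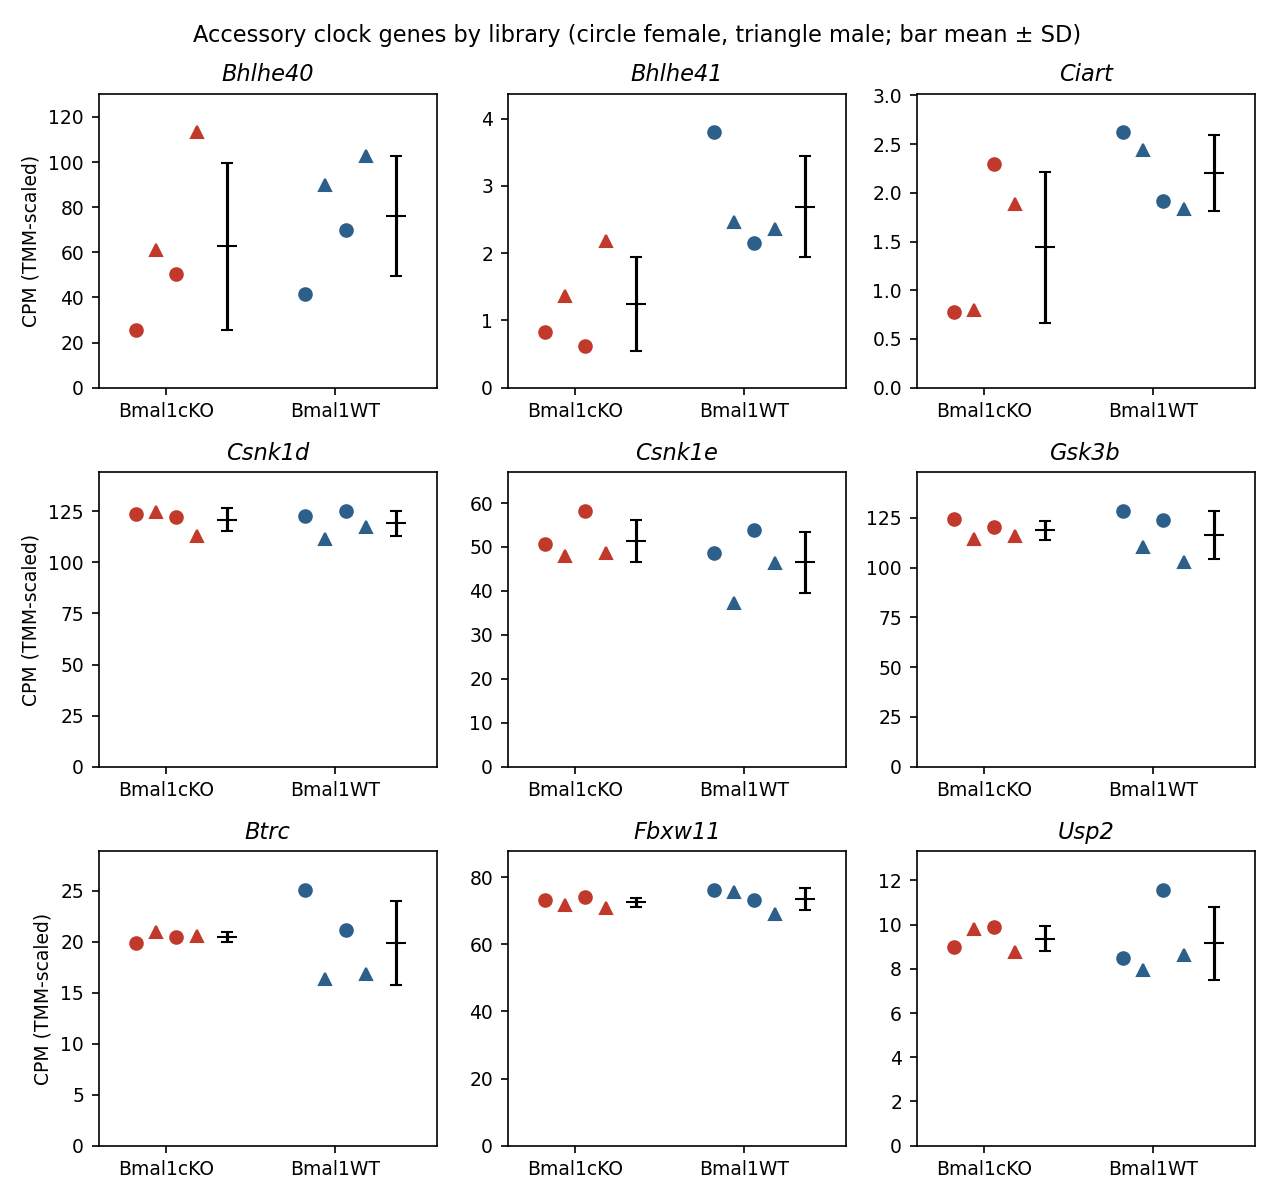
Level (CPM on TMM-scaled library sizes) of each accessory clock gene in the 4 Bmal1cKO (red, left) and 4 Bmal1WT (blue, right) libraries, circles for female and triangles for male, with mean and SD beside them. The repressors in the top row scatter widely between libraries, from 25.8 to 113 CPM for Bhlhe40, whereas Fbxw11 stays between 69.1 and 76.2 CPM.

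Bhlhe41 (ENSMUSG00000030256, GRCm38 chromosome 6, 145858243 to 145865558, minus strand), the gene of the repressor DEC2, had the lowest p of the members. It was at 0.827, 1.37, 0.617 and 2.18 CPM in Bmal1cKO replicates 1 to 4, against 3.81, 2.46, 2.15 and 2.36 CPM in Bmal1WT replicates 1 to 4. Bmal1cKO replicate 4 lay just above Bmal1WT replicate 3, and all other Bmal1cKO values lay below all Bmal1WT values. The mean was 1.25 ± 0.698 CPM in Bmal1cKO and 2.69 ± 0.752 CPM in Bmal1WT (SD, n = 4). The log2 fold change was -1.10 ± 0.36 (SE). This is 0.466-fold, with a 95% interval from 0.264-fold to 0.821-fold before any adjustment. By edgeR the unadjusted p = 0.0135 ranked 616 of 19646 genes. The edgeR adjusted p = 0.43 missed the threshold, and over the alternatives it ran from 0.158 to 0.7. The library counts were low, at 22 to 142 reads. Bhlhe41 was lower in Bmal1cKO in 4 of the 4 same-numbered pairs. The share of all genes with 4 pairs in the same direction was not counted.

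Bhlhe41 was also read within each sex, with 2 libraries per genotype. The female libraries had 0.827 and 0.617 CPM in Bmal1cKO, against 3.81 and 2.15 CPM in Bmal1WT. Their difference was -2.02 ± 0.37 on the log2 scale (SE, edgeR adjusted p = 0.589). The male libraries had 1.37 and 2.18 CPM in Bmal1cKO, against 2.46 and 2.36 CPM in Bmal1WT, and differed by -0.44 ± 0.28 (SE, edgeR adjusted p = 0.606). The difference between the sexes in this fold change was -1.58 on the log2 scale and did not pass in the interaction test (edgeR unadjusted p = 0.0128, adjusted p = 0.736). That test called 1 gene of 19646 (0.00509%). The transcript Gm43909 on the other strand overlaps 19% of the Bhlhe41 exon bases and held 17 counts over the 8 libraries beside 643 of Bhlhe41. Of the 51-base windows of Bhlhe41, 16.3% also stand in Gm43909, and since the strand setting of the counting is not given, the Bhlhe41 values are uncertain.

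Ciart (ENSMUSG00000038550, chromosome 3, 95878503 to 95882251, minus strand), the gene of the BMAL1-binding repressor CHRONO, was at 0.776, 0.798, 2.30 and 1.89 CPM in Bmal1cKO replicates 1 to 4, against 2.63, 2.44, 1.91 and 1.83 CPM in Bmal1WT replicates 1 to 4. The first pair of Bmal1cKO libraries lay below every other library, and Bmal1cKO replicates 3 and 4 lay within the Bmal1WT range. Each pair of alike Bmal1cKO values joined a female and a male library. The mean was 1.44 ± 0.774 CPM in Bmal1cKO and 2.20 ± 0.39 CPM in Bmal1WT (SD, n = 4). The log2 difference was -0.61 ± 0.35 (SE, edgeR adjusted p = 0.715). The 95% interval ran from 0.379-fold to 1.13-fold. Without Bmal1cKO replicate 3 the log2 fold change was -0.92 (edgeR adjusted p = 0.474), and without Bmal1cKO replicate 1 it was -0.40 (edgeR adjusted p = 0.802), and over all alternatives the adjusted p ran from 0.474 to 0.946. Ciart held 30 to 98 reads per library. Of its 51-base transcript windows, the read length here, 11.6% also stand in the pseudogene Gm9176, so its counts are uncertain.

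Bhlhe40 (ENSMUSG00000030103, chromosome 6, 108660629 to 108666925, plus strand), which encodes DEC1, was far more abundant than its paralog. It was at 25.8, 61.0, 50.6 and 113 CPM in Bmal1cKO replicates 1 to 4, against 41.7, 89.8, 70.1 and 103 CPM in Bmal1WT replicates 1 to 4. In each genotype replicate 1 was lowest and replicate 4 highest, so the libraries differed up to 4.41-fold within this gene while the Bmal1cKO range contained the Bmal1WT range. In each genotype both female libraries, replicates 1 and 3, were below both male libraries. The female over male difference, with genotype in the model, was -0.98 ± 0.26 on the log2 scale (SE, edgeR unadjusted p = 0.00443, adjusted p = 0.104) and missed the threshold. The mean was 62.7 ± 36.9 CPM in Bmal1cKO and 76.1 ± 26.6 CPM in Bmal1WT (SD, n = 4). The log2 difference was -0.28 ± 0.41 (SE, edgeR adjusted p = 0.926). The 95% interval ran from 0.437-fold to 1.55-fold. With the replicate block it was -0.39 ± 0.12 (edgeR adjusted p = 0.268, 0.268 to 1 over all alternatives), lower in Bmal1cKO in 3 of 4 same-numbered pairs. Leaving out 1 library moved the value between -0.73, without Bmal1cKO replicate 4, and -0.02, without Bmal1cKO replicate 1.

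BHLHE40 is known to be induced by many stimuli, and 11 immediate-early and stress genes were therefore read beside it. Their summed level was 8164, 13960, 14090 and 17720 CPM in Bmal1cKO replicates 1 to 4, against 8854, 9960, 12860 and 13150 CPM in Bmal1WT replicates 1 to 4. As for Bhlhe40, replicate 1 was lowest and replicate 4 highest in each genotype in this sum, while replicates 2 and 3 had the other order. The single genes did not all follow the sum. In Bmal1WT, Fos, Jun, Dusp1, Hspa1a and Hspa1b were highest in replicate 4, but Fosb, Junb, Egr1, Atf3, Ier2 and Nr4a1 in replicate 3. Egr1, Atf3 and Nr4a1 were lowest in Bmal1WT replicate 2. Replicate 4 of each genotype was also highest in the summed markers of melanocytes, at 22.0 CPM in Bmal1cKO and 20.7 CPM in Bmal1WT, and of fibroblasts, at 15.1 CPM in Bmal1cKO and 42.9 CPM in Bmal1WT. The other libraries had 3.27 to 13.0 CPM of the melanocyte and 3.06 to 9.75 CPM of the fibroblast markers. The part of these lists in the spread of Bhlhe40 was not tested. Of the 11 genes edgeR, DESeq2 and voom called 0, and 0 had an edgeR unadjusted p under 0.05. Over all genes tested edgeR called 0.173%, and 8.3% had an unadjusted p under 0.05. The smallest p values were those of Fosb (log2 fold change 0.50 ± 0.27, edgeR adjusted p = 0.689) and Jun (0.37 ± 0.24, 0.748), both AP-1 subunits. Fold changes were above 0 in 10 of the 11, and their median was 0.14 on the log2 scale.

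**Figure D2:**
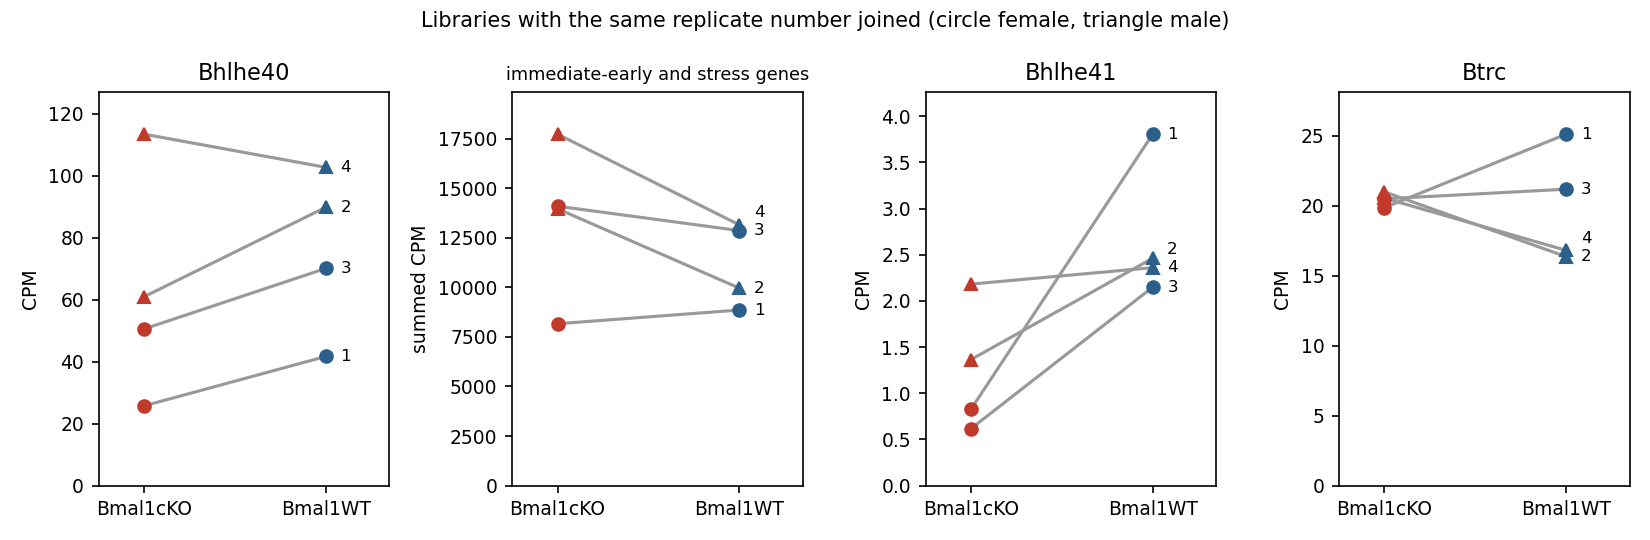
Levels in Bmal1cKO (left) and Bmal1WT (right) of Bhlhe40, the sum of 11 immediate-early and stress genes, Bhlhe41 and Btrc in CPM, with libraries of the same replicate number joined and the number at the right. Bhlhe40 and the summed genes are lowest in replicate 1 and highest in replicate 4 of each genotype, Bhlhe41 is lower in Bmal1cKO in all 4 pairs, and Btrc lines cross by sex.

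The genes whose log2 CPM ran most like each clock-controlled member over the 8 libraries were picked by the highest Pearson r among all genes tested. For Bhlhe40 they were Socs3 (r = 0.97), a feedback inhibitor of cytokine signalling, Dchs1 (r = 0.97), a protocadherin gene, and Hist1h1c (r = 0.96), a linker histone gene. For Bhlhe41 they were Mrps18c (r = 0.97), Faf1 (r = 0.95) and Yipf1 (r = 0.95). For Ciart they were Slc4a4 (r = 0.98), a bicarbonate transporter gene, Zfp112 (r = 0.96) and Zfp566 (r = 0.96), and for Usp2 Meis1 (r = 0.96), Ska2 (r = 0.96) and Elmsan1 (r = 0.95). Dchs1 (means of 0.239 CPM in Bmal1cKO and 0.303 CPM in Bmal1WT) and Slc4a4 (0.324 and 0.532 CPM) were at low levels. For each of these members 17 to 46 genes had r over 0.9. These are the highest values over all genes tested, from libraries that also differ in sex and depth, so they are given as a description. None of the 12 genes was called between the genotypes, with edgeR adjusted p values from 0.643 for Yipf1 to 1.00 for Meis1.

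None of the 3 kinase genes was called. Csnk1d (ENSMUSG00000025162, chromosome 11, 120961749 to 120991330, minus strand), whose product sets the pace of PER turnover, was at 124, 125, 122 and 113 CPM in Bmal1cKO replicates 1 to 4, against 123, 111, 125 and 117 CPM in Bmal1WT replicates 1 to 4. The Bmal1cKO range lay within the Bmal1WT range. The log2 fold change was 0.02 ± 0.05 (SE, edgeR adjusted p = 0.965), with a 95% interval from 0.932-fold to 1.11-fold.

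Csnk1e (ENSMUSG00000022433, chromosome 15, 79417856 to 79455566, minus strand), the paralog, was at 50.7, 48.0, 58.2 and 48.5 CPM in Bmal1cKO replicates 1 to 4, against 48.7, 37.2, 53.8 and 46.3 CPM in Bmal1WT replicates 1 to 4. It was higher in Bmal1cKO in 4 of 4 same-numbered pairs, a pattern not counted over all genes. The groups overlapped, since Bmal1WT replicate 3 exceeded 3 of the 4 Bmal1cKO values. The mean was 51.4 ± 4.72 CPM in Bmal1cKO and 46.5 ± 6.97 CPM in Bmal1WT (SD, n = 4). The log2 difference was 0.14 ± 0.11 (SE, edgeR adjusted p = 0.809, 0.435 with the replicate block). The 95% interval ran from 0.931-fold to 1.31-fold. The female over male difference of Csnk1e was 0.23 ± 0.08 on the log2 scale (SE, edgeR unadjusted p = 0.0168, adjusted p = 0.181). Without Bmal1WT replicate 2, the lowest library, the log2 fold change was 0.056 (edgeR adjusted p = 0.917, 0.435 to 0.935 over all alternatives).

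Gsk3b (ENSMUSG00000022812, chromosome 16, 38089001 to 38246084, plus strand) was at 125, 114, 121 and 116 CPM in Bmal1cKO replicates 1 to 4, against 129, 110, 124 and 103 CPM in Bmal1WT replicates 1 to 4. In each genotype both female libraries were above both male libraries. Its log2 fold change between the genotypes was 0.03 ± 0.07 (SE, edgeR adjusted p = 0.962), with a 95% interval from 0.911-fold to 1.14-fold. The female over male difference, with genotype in the model, was 0.17 ± 0.05 on the log2 scale (edgeR unadjusted p = 0.00922, adjusted p = 0.141) and missed the threshold. That fit called 361 of all genes (1.84%) and 0 of the 9 members. The summed Langerhans cell markers were also higher in females, at 235 and 302 CPM, against 91.1 and 177 CPM in males, in Bmal1cKO, and at 231 and 278 CPM in females, against 52.2 and 86.6 CPM in males, in Bmal1WT. The summed macrophage markers were likewise higher in both females than in both males of each genotype, but most of that sum was Adgre1. Adgre1 had means of 3.23 CPM in Bmal1cKO and 2.56 CPM in Bmal1WT. C1qa did not keep this order in Bmal1cKO, at 0.362 and 0.505 CPM in females, against 0.386 and 0.346 CPM in males. C1qb was at most 0.205 CPM in any library and did not keep the order either. The keratin gene Krt1 had the other order, at 1732 and 1276 CPM in females, against 3351 and 2397 CPM in males, in Bmal1cKO. In Bmal1WT Krt1 was at 1872 and 1759 CPM in females, against 6116 and 4100 CPM in males. The other keratinocyte keratins were mixed. Krt14 was lower in both females than in both males of each genotype, Krt5 only in Bmal1cKO and Krt10 only in Bmal1WT. The part of these markers in the sex differences of Bhlhe40, Csnk1e and Gsk3b was not tested.

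**Figure D3:**
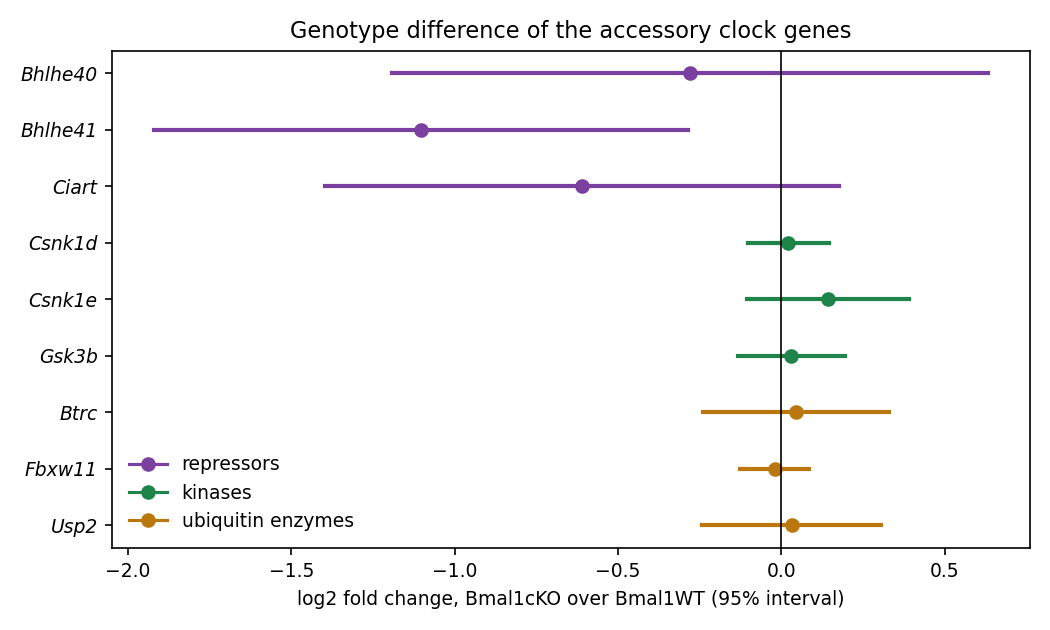
Log2 fold change, Bmal1cKO over Bmal1WT, of the 9 accessory clock genes with 95% intervals from edgeR, coloured by role. The repressor intervals are several times wider than those of the kinases, and the Bhlhe41 interval alone lies below 0 before adjustment over all genes.

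Among the ubiquitin enzymes, Fbxw11 (ENSMUSG00000020271, chromosome 11, 32642724 to 32746816, plus strand), the gene of beta-TrCP2, was at 73.0, 71.8, 74.1 and 70.8 CPM in Bmal1cKO replicates 1 to 4, against 76.2, 75.5, 73.1 and 69.1 CPM in Bmal1WT replicates 1 to 4. The highest library was only 1.10-fold above the lowest. The log2 fold change was -0.02 ± 0.05 (SE, edgeR adjusted p = 0.959), and the 95% interval, from 0.917-fold to 1.06-fold, was the narrowest of the 9.

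Btrc (ENSMUSG00000025217, chromosome 19, 45363734 to 45530013, plus strand), the gene of beta-TrCP1, was at 19.9, 20.99, 20.5 and 20.5 CPM in Bmal1cKO replicates 1 to 4, against 25.1, 16.4, 21.2 and 16.8 CPM in Bmal1WT replicates 1 to 4. The Bmal1cKO libraries lay close together, and among the Bmal1WT libraries the females were above and the males below all of them. The mean was 20.5 ± 0.465 CPM in Bmal1cKO and 19.9 ± 4.12 CPM in Bmal1WT (SD, n = 4). The log2 difference was 0.04 ± 0.13 (SE, edgeR adjusted p = 0.971). The 95% interval ran from 0.846-fold to 1.26-fold. Within the female libraries it was -0.19 ± 0.11 (edgeR adjusted p = 0.865) and within the male libraries 0.33 ± 0.09 (edgeR adjusted p = 0.202). The difference between the sexes, -0.52, did not pass in the interaction test (edgeR unadjusted p = 0.0045, adjusted p = 0.71). The pseudogene Gm6807 lies within Btrc on the other strand, overlaps 235 bases of its exons and held 92786 counts beside 6496 of Btrc. Gm6807 was at 289, 292, 284 and 306 CPM in Bmal1cKO replicates 1 to 4 and 262, 324, 254 and 295 CPM in the Bmal1WT ones. It was lower in the females than in the males of each genotype. That order is opposite to that of Btrc in Bmal1WT, while in Bmal1cKO the Btrc values lay close together. Since the strand setting of the counting is not given, the Btrc values are uncertain.

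Usp2 (ENSMUSG00000032010, chromosome 9, 44067021 to 44095627, plus strand) was at 8.998, 9.79, 9.91 and 8.76 CPM in Bmal1cKO replicates 1 to 4, against 8.47, 7.92, 11.6 and 8.62 CPM in Bmal1WT replicates 1 to 4. The highest and the lowest value were both in Bmal1WT. The log2 fold change was 0.03 ± 0.12 (SE, edgeR adjusted p = 0.979), with a 95% interval from 0.845-fold to 1.24-fold. The gene Gm49380 overlaps 200 bases of its exons on the other strand and held 5206 counts beside 3013 of Usp2, which makes the Usp2 values uncertain as well. Antisense genes overlap 118 exon bases of Bhlhe40, 63 of Csnk1d and 267 of Csnk1e.

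Among the Bmal1cKO libraries the 3 repressors varied more than the other 6 genes. The standard deviation was 53.7 to 58.9% of the mean in Bmal1cKO and 17.7 to 34.9% in Bmal1WT for the 3 repressors. For the kinases and ubiquitin enzymes it was 2.02 to 9.19% in Bmal1cKO and 4.36 to 20.7% in Bmal1WT. EdgeR's estimate of the biological coefficient of variation was 39.6% for Bhlhe40, above that of 99.6% of the 1000 genes nearest to it in abundance. It was 35.5% for Bhlhe41 and 34.4% for Ciart, above 86% and 84.7% of their neighbours in abundance, while that of Fbxw11, 6.53%, was above only 8.7% of its neighbours.

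**Figure D4:**
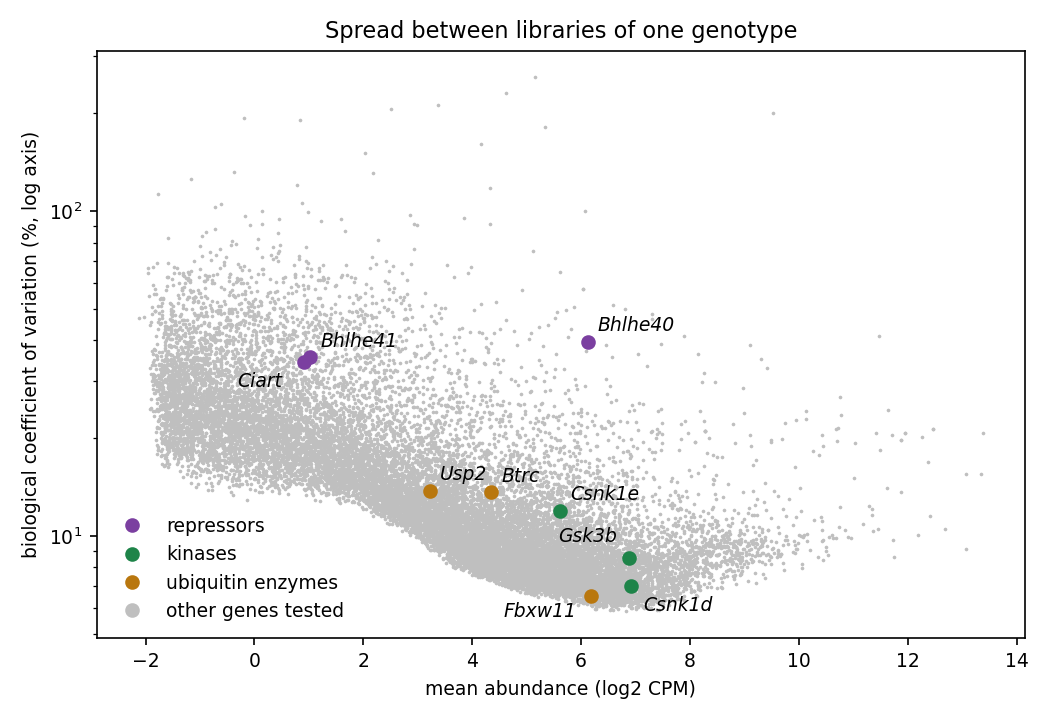
Biological coefficient of variation within genotypes (percent, log axis) against mean abundance (log2 CPM) for the 19646 genes tested (grey) and the accessory clock genes (coloured by role). Bhlhe40 stands at 39.6%, high for its abundance, and Fbxw11 at 6.53%, near the lower edge.

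Per kilobase of exon, the levels spanned a wide range. The mean over the 8 libraries was 23.9 CPM per kb for Csnk1d, 16.9 for Fbxw11, 14.8 for Bhlhe40, 11.96 for Gsk3b, 7.42 for Csnk1e, 1.92 for Usp2, 1.19 for Btrc, 0.806 for Ciart and 0.293 for Bhlhe41. Fbxw11, at 15.96 to 17.6 CPM per kb, was above Gsk3b, at 10.5 to 13.1, in every library. Bhlhe40 was separated from neither, as it ranged from 5.47 to 24.1 CPM per kb and was below Fbxw11 in 5 and above Gsk3b in 5 of the 8 libraries. Btrc exceeded Ciart in 7 of 8 libraries, and their ranges overlapped. Exon length was the union over all annotated transcripts, 16.91 kb for Btrc, so genes with many long isoforms come out low.

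In each paralog pair the same transcript was the more abundant in every library. On the log2 scale of CPM per kb, Bhlhe41 over Bhlhe40 was -5.47, -6.00, -6.87 and -6.21 in Bmal1cKO replicates 1 to 4, against -3.97, -5.70, -5.54 and -5.96 in Bmal1WT replicates 1 to 4. The ratio in Bmal1WT replicate 1 was above all others, and the other 3 Bmal1WT ratios lay within the Bmal1cKO range. Csnk1e over Csnk1d was -1.77 to -1.46 in Bmal1cKO and -1.97 to -1.61 in Bmal1WT, and Fbxw11 over Btrc was 3.74 to 3.84 in Bmal1cKO and 3.57 to 4.17 in Bmal1WT. The Bmal1cKO range of the F-box ratio lay within the Bmal1WT range. The exon unions, 4.33 kb for Fbxw11 and 16.91 kb for Btrc, enlarge this ratio. Without division by length the means were 72.4 CPM for Fbxw11 and 20.5 CPM for Btrc in Bmal1cKO. In Bmal1WT they were 73.5 and 19.9 CPM.

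**Figure D5:**
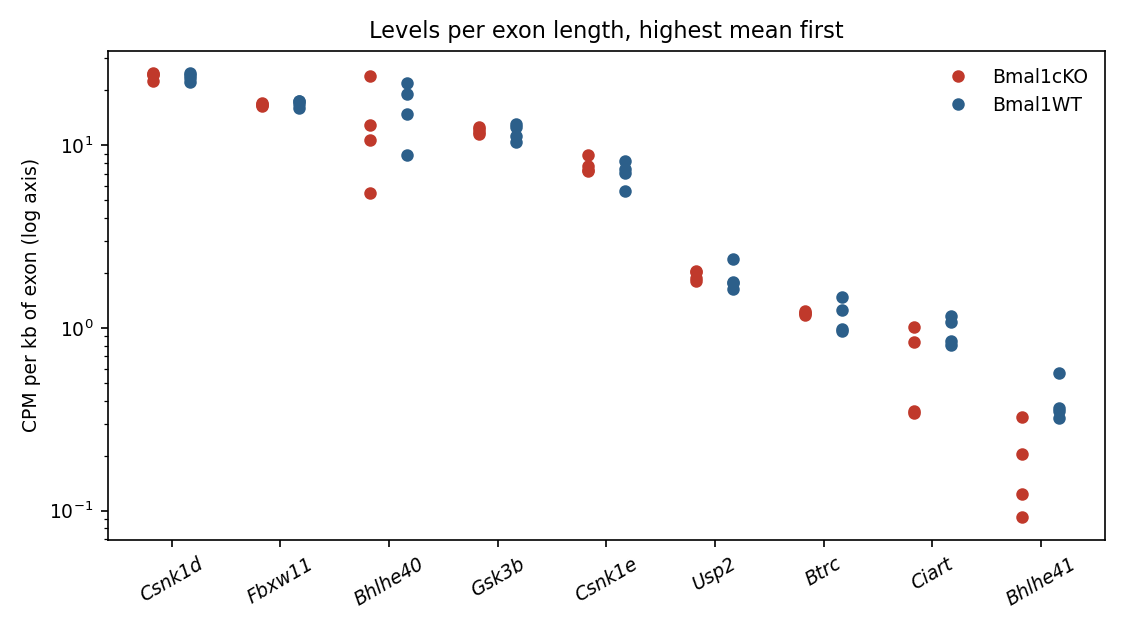
Level of each accessory clock gene as CPM per kilobase of exon (log axis) in the Bmal1cKO (red, left) and Bmal1WT (blue, right) libraries, ordered by the mean over all 8. Csnk1d is highest at 22.2 to 24.9 CPM per kb and Bhlhe41 lowest at 0.0919 to 0.566 CPM per kb.

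The core clock around these genes did change at zeitgeber time 4. Of 16 core clock and output genes edgeR called 7, 3 higher and 4 lower in Bmal1cKO, where 0.0865% of all genes were called in each direction. Npas2, a partner of BMAL1, and Cry1, a cryptochrome gene, were among those that rose, and Nr1d1, Nr1d2, Dbp and Per3 fell. The REV-ERB alpha gene Nr1d1, a repressor of Bmal1 transcription, was at 1.91, 3.04, 2.30 and 3.06 CPM in Bmal1cKO replicates 1 to 4, against 134, 130.3, 98.5 and 109 CPM in the 4 Bmal1WT libraries, with no overlap (log2 fold change -5.51 ± 0.17, edgeR adjusted p = 9.09e-07). Over the same libraries the largest difference among the accessory genes, that of Bhlhe41, was 0.466-fold.

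No other enzyme tested that acts on clock proteins was called. Of 14 further kinases and phosphatases edgeR, DESeq2 and voom called 0, and 1 had an edgeR unadjusted p under 0.05. Over all genes tested edgeR called 0.173%, and 8.3% had an unadjusted p under 0.05, so both counts are near these shares. The log2 fold changes of the 14 ran from -0.16 to 0.10 with a median of -0.02. The smallest p values were those of Ppp1cb, a catalytic subunit of protein phosphatase 1 (-0.16 ± 0.06, edgeR adjusted p = 0.473), and Csnk2a1, a casein kinase 2 subunit gene (-0.10 ± 0.05, 0.639). Ppp1cb was at 237, 206, 222 and 216 CPM in Bmal1cKO replicates 1 to 4, against 240, 262, 242 and 241 CPM in Bmal1WT replicates 1 to 4. The groups did not overlap in 2 of the 14 genes, Ppp1cb and Csnk1a1, where they did not in 5.15% of all genes; Csnk1a1, a casein kinase 1 gene, is named after its values were seen. Of 13 further ubiquitin enzymes edgeR, DESeq2 and voom called 0, and 0 had an unadjusted p under 0.05, beside the same shares over all genes. Their log2 fold changes ran from -0.12 to 0.04 with a median of -0.05, with the smallest p for Skp1a, a subunit of the ligase that holds beta-TrCP (-0.11 ± 0.05, edgeR adjusted p = 0.618).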

How the data were processed

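Counts per Ensembl gene were deposited by the authors as whole numbers without normalisation. The submitters' processing notes name the build GRCm38 (mm10), featureCounts, STAR 2.7.10a and Trim Galore, and the labels' protocols give stranded polyA libraries read on a NextSeq2000. Neither the strand setting nor the annotation release is given in the sources used here. Symbols, coordinates and exon lengths came from GENCODE M21, which named 33974 of 34070 identifiers.

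EdgeR 4.0.16 in R 4.3.3 was used with filterByExpr (minimum count 10, minimum total 15), TMM scaling and the two-sided quasi-likelihood F-test, genotype as the only term, with Benjamini-Hochberg adjustment over the 19646 genes tested. Intervals are 95% and unadjusted. DESeq2 1.42.0, limma voom 3.58.1, other scalings and filters, sex, a replicate block and left-out libraries were alternatives. The pipeline was tested on simulated counts. Promoter windows came from RefSeq (GRCm38.p6).

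The members and gene lists were chosen with earlier results of these data known. All 9 members are named, as are list genes that were called or, failing that, the 2 with the smallest p, and the 3 genes most alike to Bhlhe40, Bhlhe41, Ciart and Usp2, except 2 list genes whose results are not reported here. Same-numbered libraries deviated together, with correlations of 0.33, 0.48, 0.39 and 0.37 across genes, all over the set minimum of 0.1. They also share sex, and libraries of the same sex with other numbers were not compared. These correlations alone therefore do not separate pairing by number from shared sex. Library pairs within a group differed by more than sampling noise (chi-square per degree of freedom of 13.2 or more). No label ties a library to its own animal, so p values measure the spread between libraries. Each group held female and male libraries, so this spread includes sex and may in part be technical.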

Additional observations from a re-analysis of the deposited data

Results flagged for a closer look

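Btrc was picked out because its genotype difference ran in opposite directions in the sexes, with every Bmal1cKO library below every Bmal1WT library among females and above among males. The interaction, female minus male, was -0.52 on the log2 scale (edgeR unadjusted p = 0.0045, adjusted p = 0.71 over all genes), so the difference between the sexes was not called. No library stood apart from its group for any of the 9 genes, by a test of the gap to the nearest library over the range in 18 groups of 4 libraries.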

How the results depend on the processing

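Of 162 values of the 9 members under 18 alternatives, 152 kept their direction and side of the threshold, 10 changed sign and 0 passed the threshold. The lowest adjusted p was 0.158, for Bhlhe41 with DESeq2. In the female libraries alone the log2 fold changes of Csnk1d (-0.0079), Gsk3b (-0.039), Btrc (-0.19) and Usp2 (-0.086) were below 0. Leaving out 1 library at a time gave -0.0036 to 0.061 for Csnk1d, -0.017 to 0.082 for Gsk3b, -0.031 to 0.18 for Btrc and -0.025 to 0.17 for Usp2. Values fell below 0 without Bmal1WT replicate 2 for Csnk1d, Btrc and Usp2, without Bmal1WT replicate 4 for Gsk3b and Btrc, and without Bmal1WT replicate 1 for Usp2. The cause was not tested. Over all genes the 34 calls became 252 with DESeq2, 71 with no filter on low counts, 152 with the replicate block, 119 with sex as a covariate, 13 in the female and 101 in the male libraries alone, and 23 to 32 without 1 library. The replicate block called 10 of the 16 core clock genes in place of 7 and changed no call among the members. Reads per library were fewest for Bhlhe41 (22 to 142) and Ciart (30 to 98), with standard errors of 0.36 and 0.35. Bhlhe40, with 996 to 4657 reads, had a standard error of 0.41.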
